A study of Mus musculus with 16 samples.

Results

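Of the 17097 genes with deposited values, 83 encode proteins of the cytosolic ribosome, and their transcripts are described here in mouse striatum, in all RNA of the tissue and in RNA pulled down with astrocyte ribosomes. They were chosen by symbol alone, as names made of Rpl or Rps and a number, with Rplp0, Rplp1, Rplp2 and Rpsa added and kinase and pseudogene names (Rps6k, -ps) removed. Of these, 42 are large subunit genes other than Rpl22, 31 are small subunit genes with Rpsa, 3 encode the acidic stalk and 6 are paralogues or a pseudogene (Rpl3l, Rpl7l1, Rpl22l1, Rpl39l, Rps4l and Rps27l). Rpl22, the protein on which a ribosome tag is usually built, is given apart, so that counts below are over 82 genes. All animals were wild-type male C57BL/6J mice of 63 days whose striata were taken 2 h after an injection of 1 mg/kg clozapine N-oxide (CNO, a ligand of designer receptors) or of vehicle. From each mouse there is an input library of the cleared lysate and an IP library of RNA precipitated through a hemagglutinin (HA) tag, which gives 4 groups of 4 libraries with replicate numbers 2 to 5. The series title speaks of Gi signaling in astrocytes. What receptor CNO was to act on, which protein carries the tag and which promoter restricts either to astrocytes was not given in the sources used here. A group with CNO but no receptor was not analysed here. The design text counts 4 mice, whereas the sample titles hold 8 mouse codes. The codes were read as 8 animals. If they are not separate animals, p-values reflect just the scatter between libraries, which may be technical.

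A cytosolic ribosome has a small subunit, which reads the codons of the mRNA, and a large subunit, which joins amino acids and carries the stalk that recruits elongation factors. Most ribosomal protein mRNAs are short and begin with a cytidine and a run of pyrimidines, the 5′ terminal oligopyrimidine (TOP) tract. Through this tract the mTOR pathway and the RNA-binding protein Larp1 set how many of these mRNAs sit on ribosomes and how many are stored, so their total amount and their amount on ribosomes can part. A tagged-ribosome IP samples ribosome-bound mRNA of the tagged cells, whereas input holds bound and free mRNA of all cells.

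The start of a transcript is where a TOP tract lies, so windows around the start are shown for members that the results turn on. RefSeq start sites (table of build GRCm38.p6) were found for 62 of the 83 genes, at 74 starts. Each line below gives 15 bases before and 15 bases from the listed start, 5′ to 3′, and capitals mark a TOP tract, taken as a C within 3 bases of the start and the unbroken pyrimidines after it, at least 5 bases in all. The windows are Rps21 (chr2:180257364-180257393, plus strand), Rps6 (chr4:86857353-86857382, minus), Rpl35 (chr2:39005117-39005146, minus), Rps4x (chrX:102189377-102189406, minus), Rps27 (chr3:90213634-90213663, minus) with its paralogue Rps27l (chr9:66946071-66946100, plus), Rpl22 (chr4:152325711-152325740, plus) with its paralogue Rpl22l1 (chr3:28805493-28805522, plus), and Rpl7l1 (chr17:46782642-46782671, minus).
Rps21: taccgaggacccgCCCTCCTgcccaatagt
Rps6: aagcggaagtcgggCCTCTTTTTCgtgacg
Rpl35: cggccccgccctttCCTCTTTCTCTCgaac
Rps4x: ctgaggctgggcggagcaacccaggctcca
Rps27: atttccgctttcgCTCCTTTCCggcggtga
Rps27l: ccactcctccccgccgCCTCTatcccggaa
Rpl22: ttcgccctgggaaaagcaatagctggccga
Rpl22l1: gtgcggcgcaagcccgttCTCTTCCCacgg
Rpl7l1: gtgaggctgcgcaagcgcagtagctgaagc
The small subunit genes Rps21, Rps6 and Rps27 and the large subunit gene Rpl35 held a tract at the start shown. So did the paralogues Rps27l and Rpl22l1, while the listed starts of Rps4x, Rpl22 and Rpl7l1 held none. A further listed start of Rps21 and of Rps27l, not shown, held none either. Over all starts a tract stood at 26 of 74 member starts (35.1%) and at 12.1% of the 15702 starts of all genes in the deposited table. The match depends on the exact base listed as the start. In the 300 bases from 250 before to 50 after the start, searched on both strands, the ETS factor word CCGGAAG occurred at 36.5% of member starts and 14.2% of the starts of all deposited genes. The YY1 word AAGATGG occurred at 16.2% and 6.43%, the CRE word TGACGTCA at 6.76% and 2.78%, and the E-box CACGTG at 10.8% and 9.20%. Ends of these words can overlap (AAG of the ETS and YY1 words, CA of the CRE and the E-box), and each match was counted for its own word. These are letter matches, not bound sites.

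The libraries held 32.8 to 40.3 M (mega) reads assigned to genes in input and 52.1 to 61.5 M in IP. Of these, the 82 genes took 0.709% ± 0.0429 (SD, n = 4) in vehicle input, 0.701% ± 0.0761 in CNO input, 0.210% ± 0.0113 in vehicle IP and 0.235% ± 0.00730 in CNO IP. In vehicle mice IP held more astrocyte marker RNA than input (9 of 9 markers passed; summed level 27383 to 33123 CPM in IP and 2799 to 2960 in input, where CPM is the read number over the authors' normalized library size in mega-reads). It held less of microglia (9 of 9 lower; 26.5 to 58.1 against 545 to 1376 CPM), endothelium (8 of 8 lower; 17.3 to 25.7 against 136 to 152 CPM) and medium spiny neurons (8 of 8 lower; 2341 to 2681 against 5332 to 7041 CPM). None of these markers was at 0 in a whole group. IP also held more ependymal (5 of 5), interneuron (4 of 5) and oligodendrocyte markers (4 of 7) than input. Of all 15903 genes tested 37.6% were higher and 37.3% lower in vehicle IP. Summed levels were 184 to 256 against 35.6 to 43.2 CPM for ependymal and 893 to 1010 against 187 to 234 CPM for interneuron markers. Those of oligodendrocyte markers overlapped (5646 to 13320 against 4975 to 6246 CPM). The IP thus held marker RNA of other cells besides astrocytes.

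**Figure D1:**
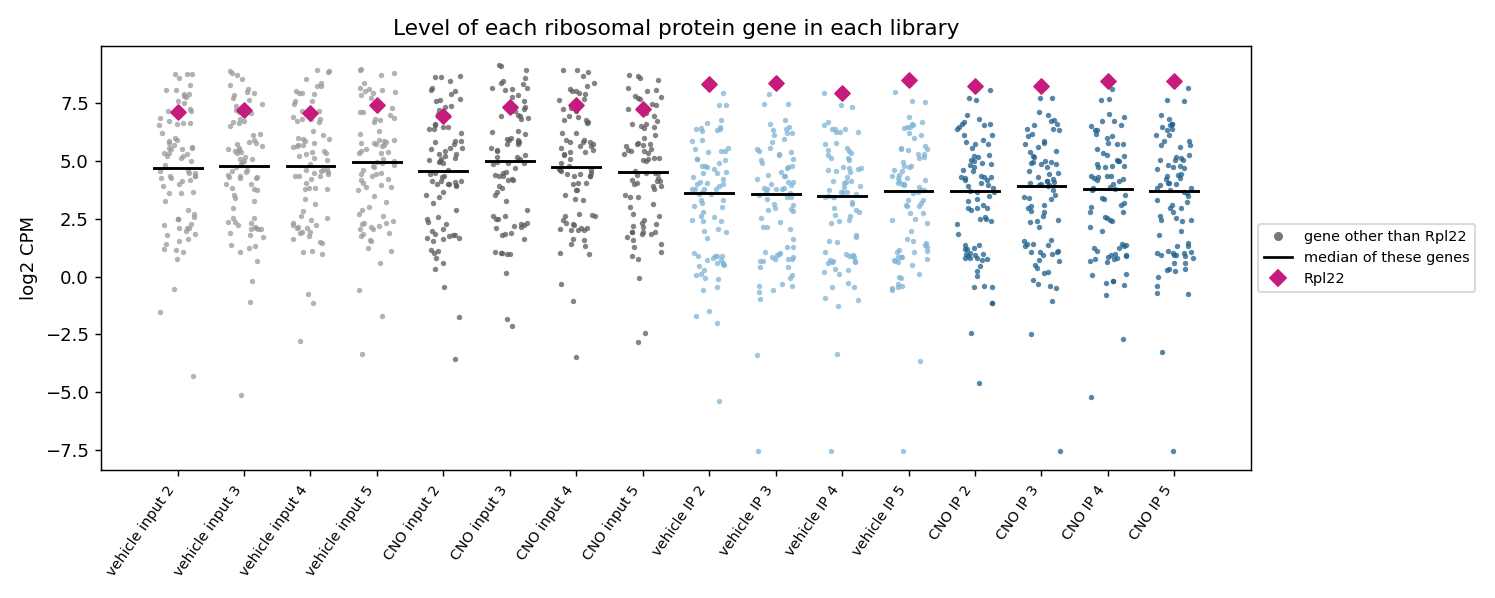
Level of each ribosomal protein gene (log2 CPM, y axis) in each of the 16 libraries (x axis), with a point per gene, a bar at the median and a diamond for Rpl22. The library medians lie between 4.53 and 5.01 in input and between 3.47 and 3.92 in IP, while Rpl22 is higher in every IP library than in every input library.

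Ribosomal protein transcripts were lower in astrocyte ribosome IP than in input, and this held for large subunit, small subunit and stalk genes alike. In vehicle mice 77 of 81 tested genes were lower and 1 was higher (limma, adjusted p under 0.05), where 37.3% of all 15903 genes tested were lower and 37.6% higher. The median log2 difference (IP minus input) was -1.64, a 3.12-fold lower level, with an interquartile range of -1.88 to -1.19, and the median of all genes was 0. At least 2-fold lower were 67 of the 81, against 15% of all genes. The 4 IP libraries lay below the 4 input libraries without overlap for 77 members (34.5% of all genes). Leaving out any 1 of the 8 libraries kept all 78 calls. Rpl39l, with 37 reads over the 16 libraries, did not pass the filter on low counts. The design does not tell apart a smaller amount of these mRNAs in astrocytes than in other striatal cells from a smaller share of them on the captured ribosomes, and in such bulk samples fewer cells of a type and less RNA per cell cannot be told apart. The parts of coding length and of microglial, endothelial and neuronal RNA in these differences were not tested.

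**Figure D2:**
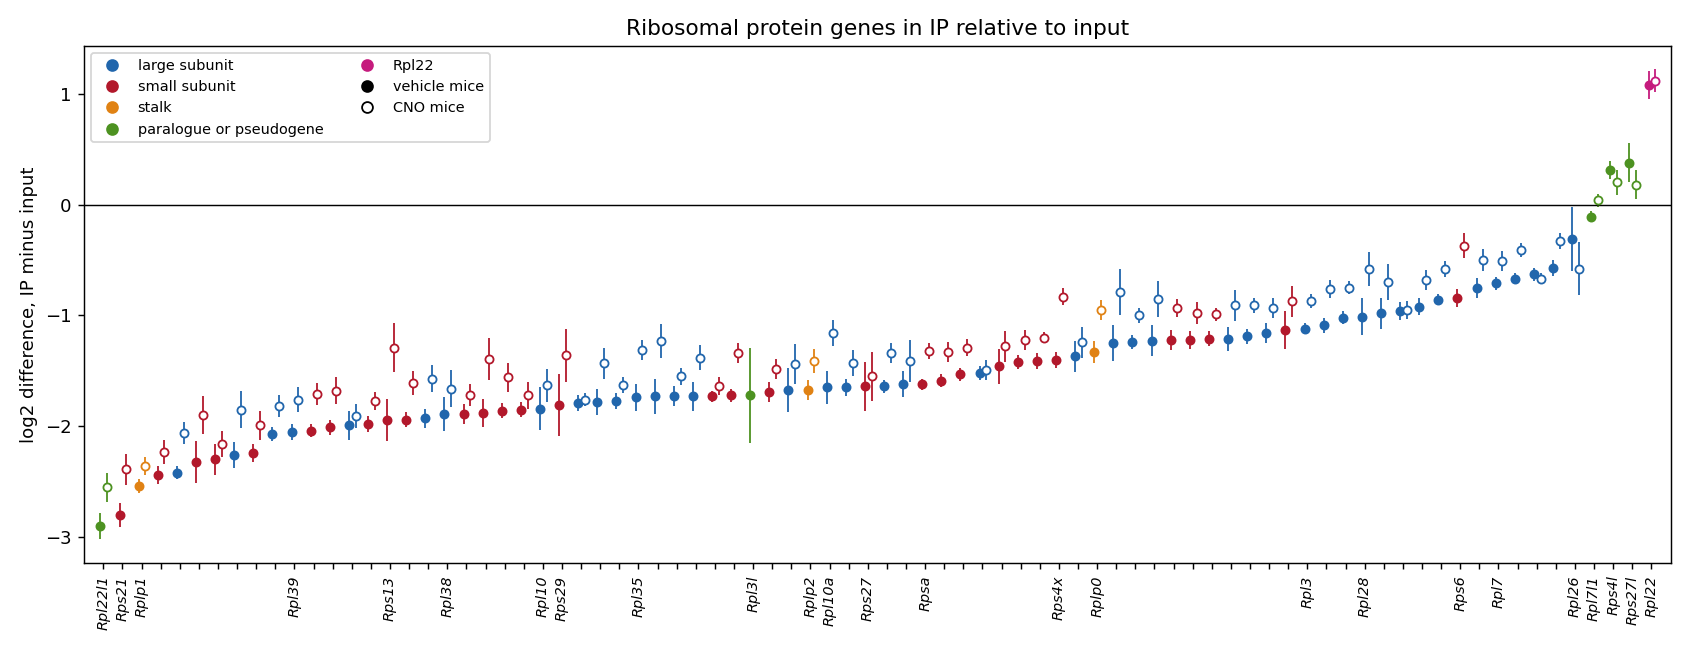
Log2 difference between IP and input (y axis) for each tested ribosomal protein gene (x axis, ordered by the vehicle value, names given for some), with filled points for vehicle mice, open points for CNO mice and bars of 1 standard error. All large subunit, small subunit and stalk genes other than Rpl22 lie below 0, the paralogues spread from -2.90 to 0.38 in vehicle mice, and Rpl22 stands at 1.08.

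Among small subunit genes all 31 were lower, with a median of -1.73 and a range of -2.80 to -0.84. Rps21, with a coding sequence of 249 nucleotides, had the lowest value. Its log2 CPM was 6.63, 7.02, 6.81 and 6.99 in vehicle input (replicates 2 to 5) and 3.99, 4.21, 3.86 and 4.19 in vehicle IP, a difference of -2.80 (SE 0.11, adjusted p = 2.22e-08). Every IP library lay far below every input library. Rps6, the S6 kinase substrate whose phosphorylation is a usual readout of mTOR signalling, was at the other end of the subunit, at 3.68, 3.75, 3.79 and 3.73 in input and 2.78, 2.89, 2.87 and 3.08 in IP (-0.84, SE 0.08, adjusted p = 8.31e-06). Even there no IP library reached an input library. Rpsa, which doubles as a laminin receptor, was at 7.18, 7.08, 7.17 and 7.11 in input and 5.52, 5.41, 5.55 and 5.57 in IP (-1.62, SE 0.05, adjusted p = 4.93e-09).

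Of the 42 large subunit genes 41 were lower, with a median of -1.44 and a range of -2.42 (Rpl32) to -0.31. The exception was Rpl26, at the top of that range and one of the scarcest members. Its log2 CPM was -0.55, -0.19, -0.76 and -0.56 in input and -1.47, -0.41, -0.91 and -0.51 in IP, which overlap (SE 0.29, adjusted p = 0.346). Rpl10a was at 2.69, 2.53, 2.82 and 2.90 in input and 0.90, 1.03, 0.94 and 1.45 in IP (-1.65, SE 0.15), and Rpl10, which completes the large subunit in the cytoplasm, differed by -1.84 (SE 0.19). The 3 stalk genes differed more among themselves. Rplp1 was at 8.76, 8.70, 8.83 and 8.79 in input and 6.35, 6.13, 6.25 and 6.21 in IP, a difference of -2.54 (SE 0.06, adjusted p = 1.48e-09). Rplp2, its partner in the stalk dimers, differed by -1.67 (SE 0.09), and Rplp0, which anchors the dimers to the ribosome, by -1.33 (SE 0.10). Fau, a ribosomal protein gene outside the symbol rule whose product is made as a fusion to a ubiquitin-like protein, stood at -0.96.

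Rpl22 was the only subunit gene outside the paralogues that was higher in IP. Its log2 CPM was 7.11, 7.19, 7.08 and 7.44 in vehicle input and 8.33, 8.37, 7.93 and 8.51 in vehicle IP, a difference of 1.08 (SE 0.13, adjusted p = 5.00e-05). In CNO mice the difference was 1.12 (SE 0.10, adjusted p = 3.58e-06), from 6.93, 7.33, 7.40 and 7.23 in input to 8.25, 8.23, 8.45 and 8.44 in IP. All 8 IP libraries lay above all 8 input libraries. Values per gene do not separate reads of the mouse gene (chr4:152325742-152334071, GRCm38, plus strand) from reads of a construct with its coding sequence, and the labels do not say that one was used.

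Rpl22l1, the paralogue of Rpl22 on chromosome 3 (chr3:28805436-28807424), stood at the opposite end of the family. It was at 4.55, 4.87, 4.89 and 4.76 in vehicle input and 1.99, 2.08, 1.78 and 1.62 in vehicle IP (-2.90, SE 0.12, adjusted p = 3.40e-08), the lowest difference of any tested member. The log2 level of Rpl22l1 relative to Rpl22 went from -2.44 ± 0.22 (SD, n = 4) in vehicle input to -6.42 ± 0.33 in vehicle IP, and from -2.48 ± 0.23 to -6.16 ± 0.28 in CNO mice. These ratios did not overlap between IP and input in either set of mice. The exact two-sided permutation p was 0.0286, the smallest that 4 against 4 libraries allow, and 0.0762 after Benjamini-Hochberg adjustment over the 24 tests of 6 pairs in 4 comparisons. That test takes the libraries as unpaired. With IP and input of 1 mouse paired, the ratio was lower in IP in 4 of 4 vehicle and 4 of 4 CNO mice, and the exact permutation p was 0.125 in each, the smallest that 4 pairs allow, so the paired design cannot reach the threshold.

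Rps27l, Rpl7l1 and Rps4l were not called lower in vehicle IP, unlike the genes they resemble. Rps27l, a p53 target, was at 4.33, 4.36, 4.45 and 5.01 in vehicle input and 4.92, 4.79, 4.67 and 5.28 in vehicle IP, with overlap between the groups (0.38, SE 0.18, adjusted p = 0.0817). With the mouse as a block the same difference passed (adjusted p = 0.000859), and without vehicle input replicate 5 it was 0.53 (adjusted p = 0.00587). Rps27 itself was lower in IP (-1.64, SE 0.22), so the log2 ratio of Rps27l to Rps27 went from 3.34 ± 0.32 (SD, n = 4) to 5.36 ± 0.37. Rps27 had 1004 reads over all libraries and has 1 near-identical copy, to which reads may be lost. The size of the ratio is therefore not read as the relative level of the paralogue and Rps27. Rpl7l1, whose product acts in ribosome assembly, was at 5.54, 5.57, 5.70 and 5.70 in vehicle input and 5.55, 5.54, 5.46 and 5.52 in vehicle IP (-0.11, SE 0.05, adjusted p = 0.0826). This difference passed as a lower level with upper quartile scaling (-0.26), with plain library totals (-0.37) and without vehicle input replicate 2 (-0.14). Rpl7 was lower (-0.71, SE 0.06), and the log2 ratio of Rpl7l1 to Rpl7 was 0.61 higher in IP than in input, without overlap. Rps4l was the single member called higher, at 3.62, 3.85, 3.77 and 3.88 in input and 3.99, 4.08, 4.03 and 4.26 in IP (0.31, SE 0.08, adjusted p = 0.00748), a call lost with upper quartile scaling (0.15, adjusted p = 0.105) and with plain library totals (0.04, adjusted p = 0.684). It is annotated as a transcribed processed pseudogene at chr6:148354656-148355598, on the plus strand and overlapping Tmtc1, which was lower in IP (-0.84), so reads of both loci may be shared. The log2 ratio of Rps4l to Rps4x was 1.71 higher in IP than in input. These 3 ratios did not overlap between IP and input in vehicle or in CNO mice, with the same exact permutation p as for Rpl22l1 (0.0286, and 0.0762 adjusted), and were higher in IP in 4 of 4 mice of each kind (exact paired permutation p = 0.125). The ratios of the scarce paralogues Rpl3l and Rpl39l to Rpl3 and Rpl39 did overlap. Rpl3l was lower in vehicle IP (-1.72, SE 0.43, adjusted p = 0.00517), as was Rpl3 (-1.12, SE 0.05).

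**Figure D3:**
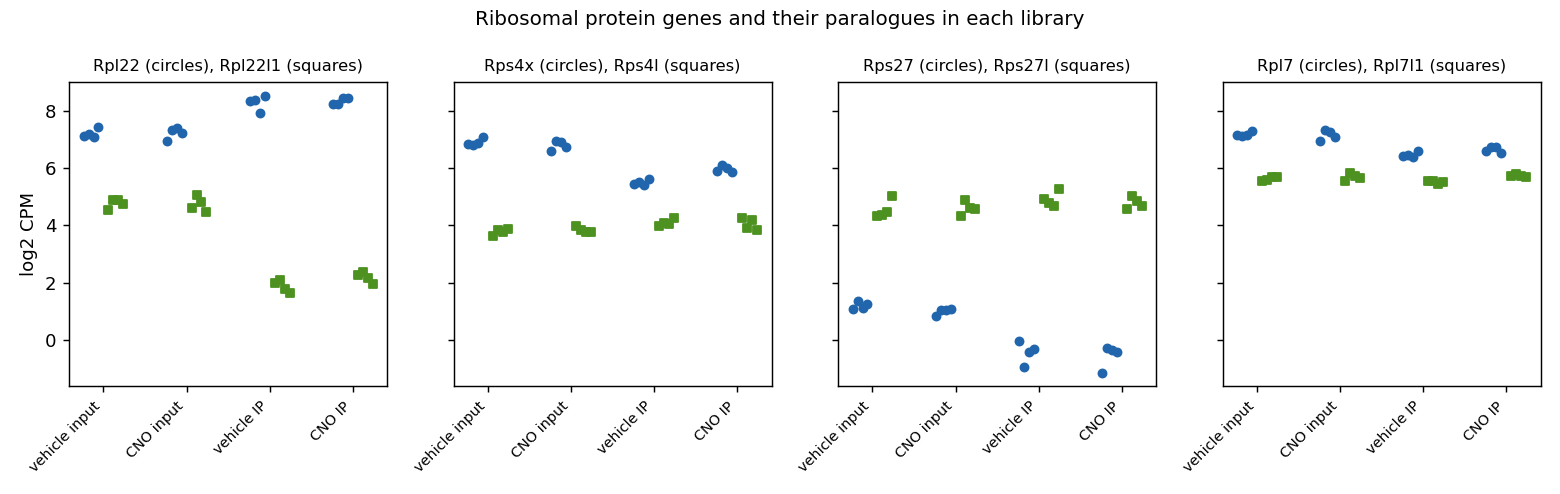
Log2 CPM (y axis) of 4 ribosomal protein genes (circles) and their paralogues (squares) in each library, by group (x axis, n = 4). From input to IP, Rpl22 is higher and Rpl22l1 lower, while Rps4x, Rps27 and Rpl7 are lower and Rps4l, Rps27l and Rpl7l1 stay near their input levels.

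The difference between IP and input varied with coding length within the family. Over the 76 members without paralogues, Pearson's r with log2 coding length was 0.43 and Spearman's rho 0.45 in vehicle mice, across genes that share the same 8 libraries. Short genes in general were lower in IP, with a median of -0.56 for the 273 other genes of at most 300 coding nucleotides and of -0.08 for the 1916 of 600 to 900. The members were below these at each length, with medians of -1.85 (10 genes) and -1.47 (20 genes). The mean level of a member did not track the difference (r = -0.03). Reads of ribosomal protein genes can be lost to or gained from copies elsewhere in the genome, and 29 members have a copy of at least 95% identity over 80% of the transcript in GENCODE M21. Per kilobase of transcript, the vehicle input level of the 76 genes ran from 1.34 CPM (Rpl26, 6 copies) to 875 CPM (Rplp1, 1 copy), with a median of 43.2 for the 29 with a copy and 35.8 for the 47 without, although nearly all of the proteins stand in equal number on the ribosome. Levels of different members are therefore not compared further. The median difference between IP and input was -1.67 for the 29 with a copy and -1.53 for the 51 without. Those 51 include the paralogues Rpl3l, Rpl7l1, Rpl22l1 and Rps27l, which the 47 leave out. Members with and without a TOP tract at a listed start had medians of -1.64 (25 genes) and -1.65 (35 genes).

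**Figure D4:**
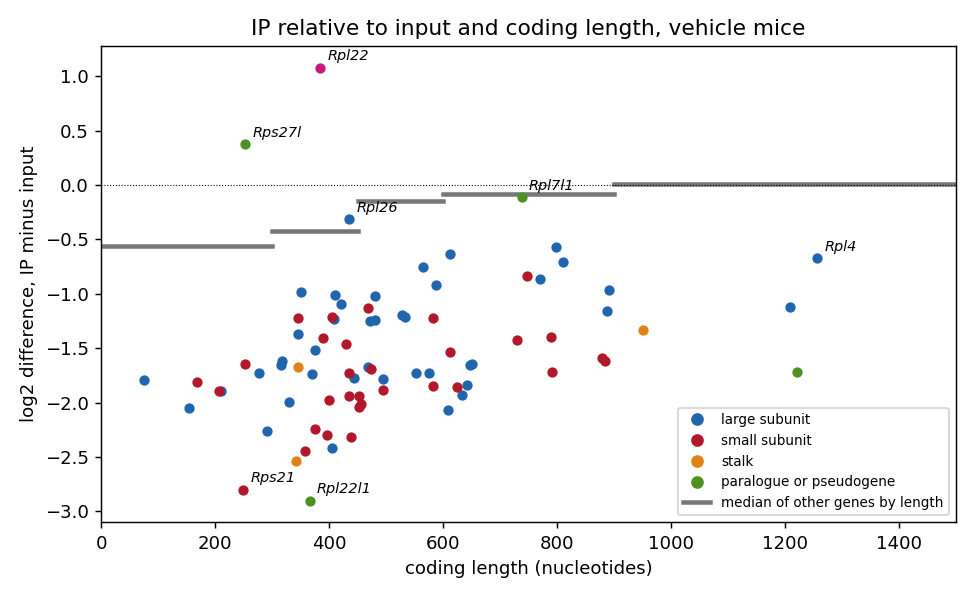
Log2 difference between IP and input in vehicle mice (y axis) against coding length in nucleotides (x axis), with a point per ribosomal protein gene and grey bars at the median of all other genes in each length range. Nearly all members lie below the grey bar of their length, with Rpl22, Rps27l and Rpl26 above it.

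In CNO mice the family was again lower in IP, by a smaller margin. Of 80 tested genes 77 were lower and 0 higher (35.1% and 40.0% of all 15801 genes tested), with a median of -1.33, a 2.51-fold lower level. The 4 IP libraries lay below the 4 input libraries for 75 (32.6% of all genes). Rpl7l1 (0.04), Rps27l (0.18) and Rps4l (0.20) did not pass, and all 3 fell below 0 with upper quartile scaling or plain library totals. With the mouse as a block, Rps27l and Rps4l passed as higher (adjusted p = 0.0152 and 0.0328). The call of Rpl26 (-0.58, SE 0.24, adjusted p = 0.0494) was lost without any of CNO IP replicates 2, 4 or 5 or CNO input replicates 3, 4 or 5. Rps21 (-2.39), Rplp1 (-2.36) and Rpl22l1 (-2.55) had the lowest values here too. Across the 80 genes the vehicle and CNO differences correlated with r = 0.969 and rho = 0.954 (0.956 and 0.948 across 15654 genes of all kinds), as a description over genes. The difference was higher in CNO mice for 76 of the 80, and for 8447 of the 15654 genes of all kinds.

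The next comparison asks what CNO changed in the ribosome-bound RNA. Of 80 tested ribosomal protein genes 20 rose in CNO IP, by small amounts, 0 fell and 60 did not pass, against 10.2% and 7.07% of all 15598 genes tested that rose and fell. The median change was 0.21 on the log2 scale (1.16-fold), 75 of the 80 were above 0 (48.3% of all genes), and the values ran from -0.14 to 0.46. The median of all genes was -0.01. For 28 members every CNO IP library lay above every vehicle IP library (12.8% of all genes), and 40 had an unadjusted p under 0.05 (29.6% of all genes). The genes that rose were 9 of 42 large subunit genes (Rpl3, Rpl4, Rpl7a, Rpl8, Rpl13a, Rpl21, Rpl23, Rpl32 and Rpl35), 9 of 31 small subunit genes (among them Rps3a1, Rps4x, Rps9, Rps14, Rps19, Rps21, Rps24 and Rpsa), the stalk gene Rplp0 and the paralogue Rpl7l1.

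**Figure D5:**
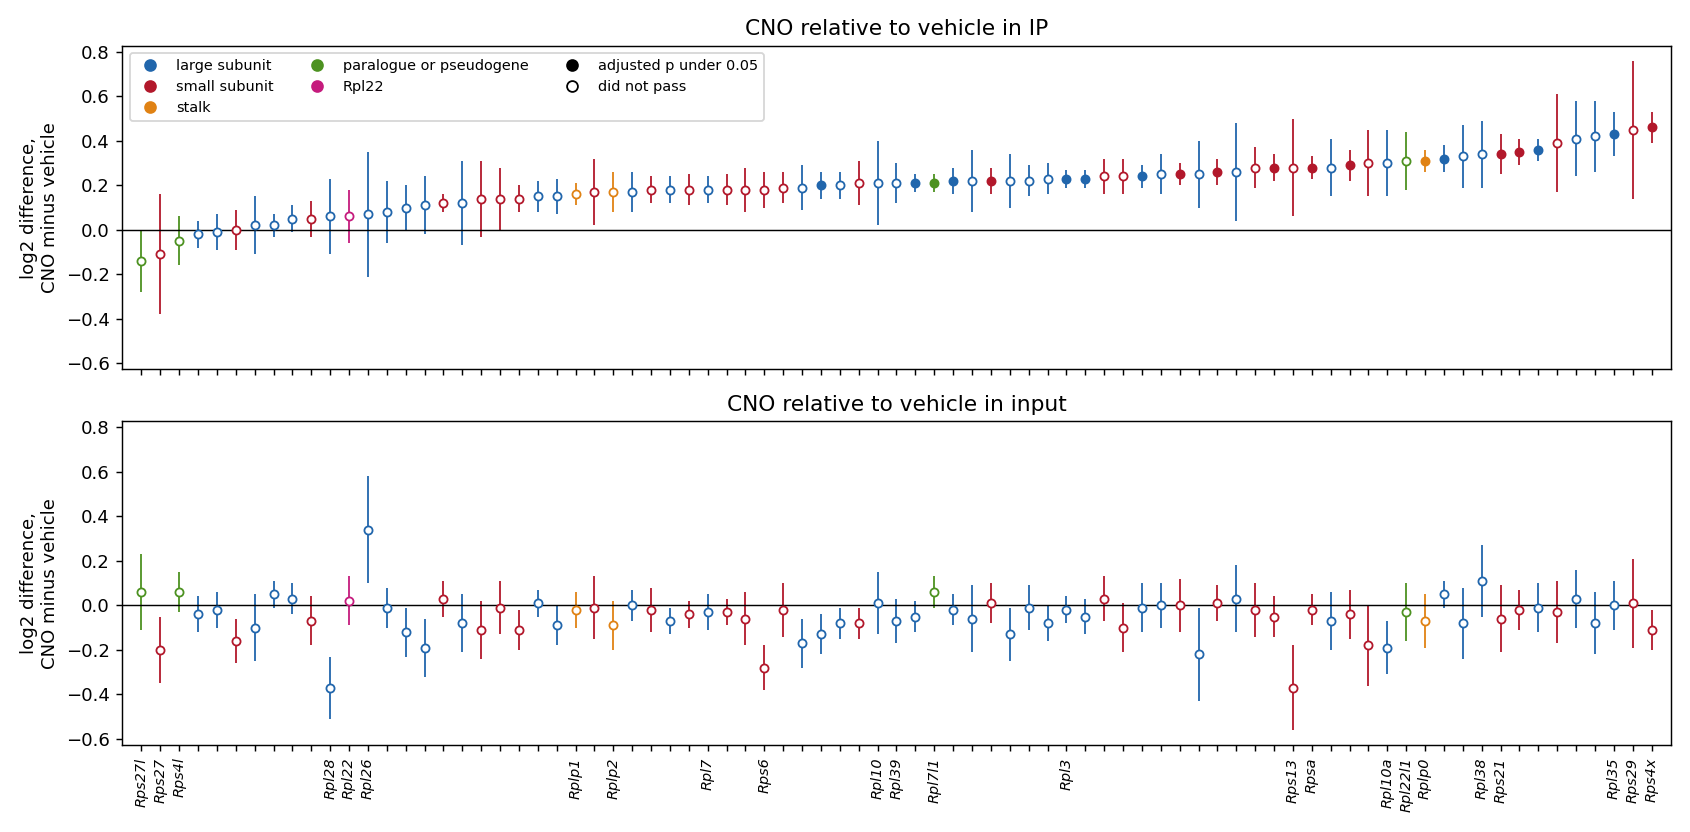
Log2 difference between CNO and vehicle (y axis) for each ribosomal protein gene (x axis, ordered by the value in IP, names given for some), in IP above and in input below, with bars of 1 standard error and filled points where the adjusted p was under 0.05. In IP 75 of 80 genes other than Rpl22 lie above 0, and in input the values scatter around 0 and 0 pass.

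Rps4x, the X-linked gene of a small subunit protein (chrX:102184941-102189394), changed most. Its log2 CPM was 5.44, 5.51, 5.42 and 5.63 in vehicle IP and 5.90, 6.10, 5.99 and 5.87 in CNO IP, a rise of 0.46 (SE 0.07, adjusted p = 0.00139). Every CNO library stood above the highest vehicle library. Rpl35 was at 2.06, 2.14, 1.73 and 1.97 in vehicle IP and 2.39, 2.40, 2.40 and 2.42 in CNO IP (0.43, SE 0.10, adjusted p = 0.0201). This call did not hold when CNO IP replicate 2 or 4 was left out. Rplp0 was at 6.30, 6.19, 6.24 and 6.42 and then 6.59, 6.61, 6.57 and 6.60 (0.31, SE 0.05, adjusted p = 0.00387), while its stalk partners Rplp1 (0.16, adjusted p = 0.0736) and Rplp2 (0.17, adjusted p = 0.224) did not pass. Rpsa was at 5.52, 5.41, 5.55 and 5.57 and then 5.84, 5.75, 5.72 and 5.86 (0.28, SE 0.05, adjusted p = 0.00568). In these 4 genes the CNO and vehicle libraries did not overlap. Rps21 (0.34, adjusted p = 0.0350) did not pass when any 1 CNO library, or replicate 2 or 4 of the vehicle libraries, was left out, nor with upper quartile scaling (adjusted p = 0.0619), plain library totals (0.0616) or no trend (0.0519).

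Other members had values of the same size with too much spread to pass. Rps29, one of the scarcest, was at -1.71, -0.68, -1.26 and -0.58 in vehicle IP and -0.39, -1.07, -0.21 and -0.74 in CNO IP (0.45, SE 0.31, adjusted p = 0.401). Rps6 (0.18, adjusted p = 0.187) and Rpl10a (0.30, adjusted p = 0.207) overlapped between the groups. At the lower end stood Rps27l (-0.14), Rps27 (-0.11) and Rps4l (-0.05), none of which passed, and Rpl22 was at 0.06 (adjusted p = 0.828). Calls were made for 18 of the 40 members with at least 18975 reads over all libraries and for 2 of the 40 with at most 16761 reads. The medians of these sets were 0.22 and 0.18, and their median standard errors 0.06 and 0.14, so a change of this size was often not detectable in the scarcer members. Members with a TOP tract at a listed start had a median of 0.22 (6 of 25 rose) and those without 0.21 (8 of 34 rose). Genes without one can still be TOP mRNAs with a tract off the listed start, so an effect of the tract was not tested.

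In IP the number of ribosomal protein genes that rose was 30 without vehicle IP replicate 5, and 14 of the 20 calls held in each of the 8 fits that left out 1 library. Marker RNA of other cells in IP gave 0 of 9 microglial, 0 of 8 endothelial, 0 of 8 medium spiny neuron, 0 of 5 interneuron, 0 of 5 ependymal and 0 of 7 oligodendrocyte markers changed. Of the astrocyte markers 2 of 9 fell (summed level 28495 to 31914 CPM in CNO IP and 27383 to 33123 in vehicle IP). Of 4 mural cell markers 1 fell, with a summed level of 31.5 to 42.7 CPM in CNO IP and 59.4 to 85.2 in vehicle IP, and the part of these in the 20 calls was not tested.

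Genes that serve the ribosome were counted beside its proteins in CNO IP, where 10.2% of all genes tested rose and 7.07% fell. Of 77 ribosome biogenesis genes 35 rose and 0 fell (median 0.19), led by Las1l (0.92, SE 0.08, adjusted p = 4.49e-05), a subunit of the pre-rRNA processing endonuclease, and Bysl (0.91, SE 0.07), needed for small subunit maturation. Of 21 elongation factors and other TOP mRNAs 10 rose and 0 fell (median 0.17), among them Tpt1 (0.49, SE 0.08), an abundant TOP mRNA. Of 35 initiation factors 10 rose and 0 fell (median 0.12), with the helicase Eif4a1 at 0.51 (SE 0.04). Of 39 regulators of mTOR, Larp1 and S6 kinase 6 rose and 3 fell (median -0.02), the share that fell being near that of all genes. Here the kinase gene Rps6ka3 rose by 0.72 (SE 0.05), the amino acid sensor Sesn2 rose by 0.49 (SE 0.10) and its relative Sesn1 fell by 0.71 (SE 0.09). Ribosomal proteins of mitochondria, which belong to a separate ribosome, had 1 of 77 higher and 7 lower (median -0.01), the lower share again near that of all genes, and the proteasome had 6 of 38 higher and 0 lower (median 0.06). In the comparison of IP with input in vehicle mice these lists had medians closer to 0 than that of the cytosolic ribosomal proteins, at -0.03 for biogenesis, -0.64 for elongation and TOP mRNAs, 0.04 for initiation and -0.24 for mitochondrial ribosomal proteins.

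In input, the same 2 groups of mice gave no call of a ribosomal protein gene. Of 81 tested genes 0 rose and 0 fell with limma, against 0.815% and 0.183% of all 15825 genes tested, and limma-voom also gave 0 and 0. The smallest adjusted p was 0.374, 2 members had an unadjusted p under 0.05 (10.1% of all genes), and the median was -0.04 (-0.02 for all genes), with 20 of 81 above 0 (42.5% of all genes). Rps6 was at 3.68, 3.75, 3.79 and 3.73 in vehicle input and 3.18, 3.67, 3.54 and 3.44 in CNO input (-0.28, SE 0.10, adjusted p = 0.378), and every CNO library lay below the lowest vehicle library. The groups did not overlap either for Rpl28 (-0.37, SE 0.14) and Rps27 (-0.20, SE 0.15). That makes 3 of 81 members, a share near that of all genes (4.03%). Rps13 was at -0.37 (SE 0.19) and overlapped. The highest value was that of Rpl26 (0.34, SE 0.24), and Rps4x stood at -0.11 (SE 0.09). Of cell markers in input, 2 of 8 endothelial and 1 of 4 mural markers fell. None of the astrocyte, microglial, medium spiny neuron, interneuron, ependymal or oligodendrocyte markers passed. Summed endothelial levels were 103 to 127 CPM with CNO and 136 to 152 with vehicle. Mural levels were 48.3 to 55.6 and 59.5 to 67.4 CPM. The part of these shifts in the CNO comparisons was not tested.

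The last comparison sets the CNO effect in IP against that in input. Rps4x alone passed, with a difference of 0.57 between the effects (SE 0.12, adjusted p = 0.00723), against 4.18% of all 16287 genes higher and 0.571% lower. Rps4x has 7 near-identical copies in the annotation, and 0 of the members without a copy passed. Its input libraries were at 6.84, 6.81, 6.88 and 7.10 with vehicle and 6.60, 6.96, 6.90 and 6.74 with CNO and overlapped, unlike its IP libraries. The median over 81 tested members was 0.25 (0.02 for all genes), 77 were above 0 (53.9% of all genes), and 30 had an unadjusted p under 0.05 (14.8% of all genes). The next lowest adjusted p were those of Rpsa (0.30, SE 0.08, adjusted p = 0.0502), Rpl4 (0.26, SE 0.08, adjusted p = 0.0627), Rps6 (0.46, SE 0.13, adjusted p = 0.0647) and Rpl3 (0.25, SE 0.07, adjusted p = 0.0661).

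IP and input of 1 mouse share its code, and with the mouse as a block 16 members passed as higher (6.25% of all genes) and 0 as lower. Among them were Rpl4, Rpl8, Rpl14, Rpl21, Rpl32, Rpl39, Rplp0, Rps3a1, Rps4x, Rps6, Rps10, Rps14, Rps18, Rps19 and Rps21, with blocked differences of 0.26 for Rpl4 to 0.57 for Rps4x (adjusted p = 0.000124). Rps6 was at 0.46 (SE 0.11, adjusted p = 0.0253) and Rplp0 at 0.38 (SE 0.09, adjusted p = 0.0256) in this fit. Without the block the count of 1 was 10 without CNO input replicate 3, 4 without CNO input replicate 4 or vehicle IP replicate 5, and 2 without vehicle input replicate 3 or vehicle IP replicate 3, and Rps4x was called in each of the 16 fits that left out a library.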

How the data were processed

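The authors deposited 1 file per library with log2 CPM values of 17098 gene lines. Build mm10 and the programs bcl2fastq 2.17, STAR, HTSeq and limma are named in the submitters' processing notes. How strand and multiply matching reads were handled, and with which annotation, was not given in the sources used here. Overlapping genes and near-identical copies may share reads. Per the labels' protocols, 100 ng of RNA went into each Nugen Ovation V2 library after mRNA enrichment. Solving for the normalized library size, with a prior count of 0.25, gave whole reads within 0.01 read for 100% of values. An identical duplicate line was dropped.

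Comparisons used limma 3.58.1 in R 4.3.3 (lmFit, eBayes with trend and robust settings) on the deposited log2 values of the groups compared, with Benjamini-Hochberg adjustment over all genes tested and a threshold of 0.05. Genes needed at least 15 reads in all and, in 4 libraries, the CPM of 10 reads in the median library. The procedure was tested on simulated data, with changes larger than any CNO change of the members and without pairing by mouse. That test does not cover changes as small as those reported for CNO. Ratios of paralogues were compared by exact permutation, unpaired and, as an alternative chosen after seeing the data, paired by mouse. Same-mouse IP and input libraries deviated together (r = 0.185 to 0.540 in vehicle and 0.180 to 0.402 in CNO mice), and the mouse block was an alternative, besides other scalings, limma-voom, no trend, no filter and leaving out each library. Genes were named if they are Rpl22, a stalk gene, Rpsa, Rps6, Rpl10a or of a paralogue pair, among the 3 highest or lowest of a comparison, or called against the family's median; the others named were chosen after their values were seen. Genes outside the family are from the extremes of each list, not all of which are named, and Tmtc1 is named because it overlaps Rps4l. Of the biogenesis, elongation and initiation lists only genes that rose are named. Members and lists were chosen with earlier results of these data known. Coordinates are from GENCODE M21 (GRCm38) and start sequences from RefSeq (GRCm38.p6). A few members are counted but not reported here by name.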

Additional observations from a re-analysis of the deposited data

Results flagged for a closer look

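In 6 of 108 sets of 4 libraries looked at for the named members, 1 library stood far from the other 3, and chance alone flags about 1 set in 20. Rpl10 was at 3.02 log2 CPM in vehicle input replicate 5, with the others at 2.46 to 2.55, and at 1.39 in CNO IP replicate 3, with the others at 0.85 to 0.93. Rplp2 was at 5.66 in vehicle input replicate 5, with the others at 5.34 to 5.38. Rps27 was the lowest in both libraries of CNO mouse 2, at 0.82 in input (others 1.03 to 1.07) and -1.14 in IP (others -0.41 to -0.30). Rpl39l was at -5.37 in vehicle IP replicate 2 and had 0 reads in the other 3 libraries, which stand at -7.54. The CNO effect on Rps4x differed between IP and input by 0.57 on the log2 scale (interaction term in limma, adjusted p = 0.00723).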

How the results depend on the processing

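Of 1922 values of named members under the alternatives, 1880 kept their direction and their side of the threshold, 21 lost and 21 gained a call, and 0 reversed. Between IP and input in vehicle mice, the count of higher members was 0 with upper quartile scaling or plain library totals and 2 with the mouse as a block, and the median was -1.80 with upper quartile scaling and -1.91 with plain totals, where the median of all genes shifted by -0.154 and -0.267. In CNO mice the median was -1.64 with plain totals, and 2 members were higher with the block. Among members without a near-identical copy, an alternative chosen after seeing the data, 49 were lower and 0 higher in vehicle mice (median -1.53), 48 were lower in CNO mice and 0 passed the test of the difference between CNO effects. There are fewer such members, and Rps4x, the 1 gene that passed in the whole family, has copies and is not among them. Replicate numbers do not pair CNO with vehicle mice (r = -0.169 to 0.177 in IP and -0.306 to 0.0271 in input). With the replicate number as a block 12 members rose in CNO IP, all among the 20, and the difference between effects gave 16 with the mouse as block. The cause of these moves was not tested. Without 1 library the counts ran from 1 to 2 higher and 77 to 78 lower in vehicle mice (median -1.66 to -1.60), 0 to 1 higher and 76 to 77 lower in CNO mice (-1.37 to -1.27), 15 to 30 higher in CNO IP (0.19 to 0.24), 0 either way in CNO input (-0.11 to 0.01) and 1 to 10 higher for the difference (0.21 to 0.32). The 2 and the 1 were reached without vehicle input replicate 5 and without CNO IP replicate 5. In CNO IP 16 members rose under either scaling, and 70 of 80 lay above 0 with upper quartile scaling. Among all genes called, the share that was higher was 39.3% with that scaling and 59.2% as deposited in this comparison. For IP against input in CNO mice it was 40.2% and 53.2%, and for the difference between effects 73.3% and 88.0%. With plain totals it was 34.1% against 50.2% for IP and input in vehicle mice, 34.8% in CNO mice, 44.6% in CNO IP and 77.6% for the difference. Low read numbers limit Rpl26, Rps29, Rpl3l and Rpl39l most.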

Other observations

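Rows of ribosomal protein pseudogenes, which the symbol rule leaves out, lay with the functional genes. Of 5 such rows 4 were lower in IP than in input in vehicle mice (median -1.57) and 0 higher. In CNO IP 1 of 4 tested, Rpl14-ps1, rose (0.24, SE 0.05, adjusted p = 0.0081 with limma). Rpl14 itself was at 0.23 (SE 0.07, adjusted p = 0.0536) in that comparison. Genes of oxidative phosphorylation had 48 of 81 lower and 17 higher in IP than in input in vehicle mice (median -0.40), where 37.3% of all genes were lower and 37.6% higher. In CNO IP 1 of 80 was higher and 6 lower (median -0.08), against 10.2% and 7.07% of all genes.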
